A study of Caenorhabditis elegans with 91 samples.

Results

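Messenger RNA of isolated neurons of Caenorhabditis elegans was compared between rde-4 mutants and wild type (WT), in 4 libraries of each genotype, 8 of the 91 libraries of the series. The 8 libraries were taken by their titles, as all neuron mRNA libraries of the 2 genotypes. Animals were one-day adults grown at 20 °C on OP-50 bacteria. The rde-4 strain (BFF 31) carried the rde-4(ne299) allele together with the marker otIs356, and the WT strain (BFF 30, outcrossed from OH10690) carried otIs356 alone. The marker places the red fluorescent protein TagRFP in nuclei under a rab-3 promoter, which is active in neurons. A further 4 libraries came from pigSi3 neurons (BFF 32), in which rde-4(ne299); otIs356 animals carried an integrated rde-4 transgene under the neuronal sng-1 promoter, with yfp on the same transcript. These pigSi3 libraries were fitted with the others to share an estimate of the spread, and their levels are given for orientation without a test. The sources used here do not say how the neurons were isolated, how many animals were pooled, or whether replicates were separate cultures. The p-values below therefore measure only how far these libraries varied, and that variation may be technical.

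RDE-4 binds double-stranded RNA and hands it to the endonuclease Dicer (DCR-1), which cuts it into primary small interfering RNAs. These guide Argonaute proteins, and RNA-dependent RNA polymerases then copy the targeted transcript into secondary small RNAs that lower its abundance. Besides foreign RNA, the Dicer complex with RDE-4 makes endogenous small RNAs of the class bound by the Argonaute ERGO-1. Their known targets are mostly recent gene duplicates and pseudogenes with few introns. The comparison asks which neuronal transcripts differ in level when RDE-4 is missing everywhere.

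Depth was similar in both genotypes, but WT libraries were less alike than rde-4 libraries. Between 9432353 and 15765852 reads were assigned to genes in rde-4 libraries, and between 8433146 and 15621582 in WT libraries. Levels below are CPM, read counts scaled by library size and edgeR's TMM factors, so that 1 read was worth 0.0558 to 0.111 CPM in the 8 libraries. The median Spearman correlation of a library with the others of its genotype, across genes, was 0.884 to 0.947 in rde-4 and 0.735 to 0.794 in WT, lowest in WT 4 (0.735) and WT 1 (0.753). WT 1 and WT 3 were nearest to each other (0.905), WT 4 was nearest to a pigSi3 library (0.930), and so was rde-4 2 (0.917), in which 10 genes took 37.9% of the counts. Results are given with and without WT 1, WT 3 and rde-4 2, which were picked from earlier results of these data and not by this correlation, and the effect of leaving out WT 4 is given with the other single libraries.

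The libraries held neuronal transcripts together with those of other tissues. The summed level of 22 pan-neuronal markers was 25451, 40886, 25236 and 15169.6 CPM in rde-4 libraries 1 to 4, against 12004, 20664, 7220.5 and 35577 CPM in WT libraries 1 to 4. Markers of body wall muscle (16 genes) summed to 11279.7, 17669.6, 10829 and 15332 CPM in rde-4, against 26189, 7803, 21926 and 6579 CPM in WT. WT 1 and WT 3 thus had the lowest neuronal and the highest muscle sums of the 8, and the ranges of the genotypes overlapped for each of the lists drawn in the plot of marker sums. Intestine, hypodermis, and germline and oocyte markers were highest in WT 3, at 1783, 1457 and 2505 CPM. Coelomocyte markers were near 0, between 0 and 0.798 CPM in rde-4 and between 0 and 1.73 CPM in WT. In such bulk samples, fewer cells of a type and less RNA per cell cannot be told apart, and the part of these sums in the gene results below was not tested.

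**Figure D1:**
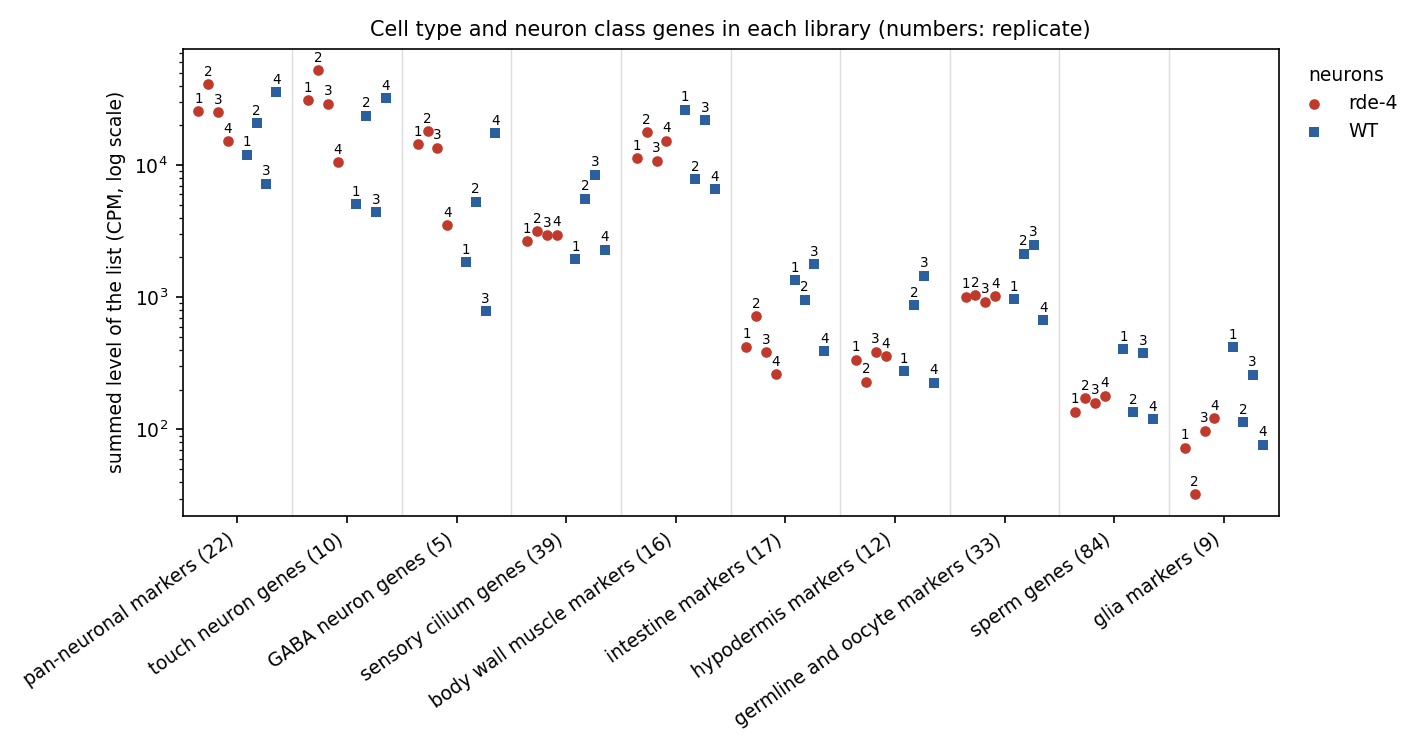
Summed CPM (log scale) of cell type markers and neuron class genes in each library, rde-4 (circles) left of WT (squares), with the replicate number above each point and the number of genes of a list in brackets. WT libraries spread more widely than rde-4 libraries for pan-neuronal markers, 7220.5 to 35577 CPM against 15169.6 to 40886 CPM in rde-4, and the 2 genotypes overlap in each list.

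The rde-4 transcript itself followed the genotype labels in each library. It stood at 3.35, 2.22, 1.97 and 3.83 CPM in rde-4 libraries 1 to 4, against 20.5, 9.02, 26.6 and 11.3 CPM in WT libraries 1 to 4. All rde-4 libraries lay below all WT libraries, and pigSi3 libraries held 287 to 319 CPM. The log2 difference, rde-4 over WT, was -2.56 (SE 0.412), with an adjusted p of 0.0155 from edgeR's quasi-likelihood test with Benjamini-Hochberg adjustment, which is the test behind all adjusted p-values below. Without WT 1, WT 3 and rde-4 2 the difference was -1.88 (adjusted p = 0.00324). Mutant libraries still held 118 reads in the gene, and a count per gene does not tell mutant from intact transcripts.

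Of 12693 genes tested, 55 passed an adjusted p of 0.05, a percent called of 0.433. There were 32 genes higher in rde-4 (0.252%) and 23 lower (0.181%), while 2127 had an unadjusted p under 0.05. In 54 of the 55 no library of one genotype overlapped the other, the exception being the insulin-like gene ins-23. Non-overlap alone held for 471 genes higher (3.71%) and 346 lower (2.73%) in rde-4. The smallest change called was 3.07-fold. The median log2 difference of all genes tested was -0.17, and it was -0.22 with size-factor (RLE) scaling and -0.49 with scaling by library totals. Each of the 55 kept its direction in the 20 alternative fits, wherever it could be tested.

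The genes higher in rde-4 included 5 pseudogenes, 4 ncRNAs and 1 lncRNA beside 22 protein-coding genes, going by the RefSeq annotation of WBcel235. The 23 lower genes held 20 protein-coding genes, 1 pseudogene, 1 ncRNA and 1 gene without a match. Shares of these types among all genes tested were not computed, so no enrichment is read from these counts. Of the genes higher in rde-4, some overlap in the annotation and may share reads. Several stood next to each other, and several are loci that lost small RNAs in the mutant. Small RNA libraries of the same genotypes, 2 rde-4 and 2 WT, provide a separate readout, counted as all small RNA reads within a gene. In these, 252 of 7537 genes tested passed (3.34%), of which 111 were lower (1.47%) and 141 higher (1.87%) in rde-4.

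The F39E9 locus on chromosome II gave 4 of the 32 genes. F39E9.7, an annotated pseudogene, stood at 36.5, 46.7, 50.6 and 61.6 CPM in rde-4 libraries 1 to 4, against 9.45, 5.53, 7.09 and 8.38 CPM in WT libraries 1 to 4. The mutant level was 6.41-fold higher (log2 2.68, SE 0.292, adjusted p = 0.000897), with a gap between the lowest mutant and the highest WT library of more than the spread within either. Its small RNAs went the other way, with 29.3 and 31.9 CPM in rde-4 against 2533 and 3233 CPM in WT (log2 -6.56, adjusted p = 0.00343).

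The neighbouring lncRNA F39E9.10 had the same pattern, with 63.7 to 149 CPM in rde-4 against 9.37 to 21.7 CPM in WT (log2 2.66, SE 0.363, adjusted p = 0.0067). Its small RNAs stood at 115.6 and 204 CPM in rde-4 and at 4515 and 5909 CPM in WT (log2 -5.04, adjusted p = 0.0494). The ncRNAs F39E9.19 and F39E9.20 were 7.1-fold and 6.67-fold higher in rde-4 (adjusted p 0.0113 and 0.0131). Both overlap F39E9.7 in the annotation, and it is not given whether counting used strand. How far the 3 differ separately from one another is therefore uncertain. In pigSi3 neurons F39E9.7 stood at 15.7 to 24.4 CPM and F39E9.10 at 24.4 to 29.1 CPM, between the ranges of the mutant and of WT.

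On chromosome III, 3 of the 4 tested genes in a row were higher in rde-4. W04B5.6 stood at 80.9, 84.1, 90 and 115 CPM in rde-4, against 11.64, 10.6, 10.6 and 18.2 CPM in WT. The lowest mutant library was thus above 4 times the highest WT library, and W04B5.6 shared with M176.5, described below, the smallest adjusted p of all genes (log2 2.86, SE 0.293, adjusted p = 0.000781). E02H9.6 was tightly grouped in the mutant, at 123 to 140.4 CPM, against 11.7 to 32.6 CPM in WT (log2 2.75, SE 0.364, adjusted p = 0.00542). The pseudogene W04B5.2 had 49.6 to 95.8 CPM in rde-4 against 18.8 to 30.9 CPM in WT (log2 1.62, SE 0.326, adjusted p = 0.0479). Small RNAs of W04B5.2 fell to 22.1 and 19.9 CPM in rde-4, against 1826 and 1781 CPM in WT (log2 -6.41, adjusted p = 1.9e-11). W04B5.6 and E02H9.6 were not tested for small RNAs. In pigSi3 these 3 genes again lay nearer to WT than to the mutant on average, with 23.8 to 30 CPM for W04B5.6 and 36.8 to 50.5 CPM for E02H9.6. The pigSi3 range of W04B5.2, 25.9 to 51.1 CPM, overlapped both genotypes.

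The neighbours K08A2.1 (lido-8) and C41H7.6 (lido-9) on chromosome II were also both higher. K08A2.1 overlaps K08A2.17 and K08A2.9 in the annotation, so reads of these genes could mix. K08A2.1 had 49.9, 76.2, 95.4 and 50.3 CPM in rde-4, against 25.9, 17.3, 22.1 and 17.7 CPM in WT (log2 1.71, SE 0.301, adjusted p = 0.0204). C41H7.6 had 40 to 55.2 CPM in rde-4, against 9.55 to 17.6 CPM in WT (log2 1.95, SE 0.272, adjusted p = 0.00715). For K08A2.1 the small RNAs were lower in rde-4, at 127 and 184 CPM against 818 and 621 CPM in WT (log2 -2.22, adjusted p = 3.36e-06). For C41H7.6 they did not pass, at 4.99 and 5.98 CPM in rde-4 against 14.9 and 6.51 CPM in WT (adjusted p = 0.532).

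A pair of pseudogenes elsewhere had more mRNA and fewer small RNAs in rde-4 than in WT. Y17D7C.3, on chromosome V, had 219, 619.7, 230.4 and 264 CPM in rde-4, against 69.1, 67.7, 59.4 and 118 CPM in WT. The library rde-4 2 was the highest, but the others also lay above WT (log2 2.08, SE 0.419, adjusted p = 0.0479). Its small RNAs stood at 274 and 398 CPM in rde-4 and at 5689.7 and 7574 CPM in WT (log2 -4.31, adjusted p = 2.9e-08). In pigSi3 neurons both its mRNA (51.9 to 60 CPM) and its small RNAs (403.2 and 305 CPM) were low.

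The second pseudogene, on chromosome IV and the only one of that chromosome in the plot of higher genes, was near absent from WT, at 0.424 to 0.625 CPM, and reached 22.2, 2.33, 28.6 and 42.7 CPM in rde-4, with rde-4 2 far below the other mutant libraries. It was 46.6-fold higher in the mutant (log2 5.54, SE 0.793, adjusted p = 0.00929). Its small RNAs were 18.6 and 13.9 CPM in rde-4 against 194 and 237 CPM in WT (log2 -3.7, adjusted p = 3.3e-07). In pigSi3 neurons its mRNA was at 0.36 to 1.71 CPM while its small RNAs stood at 287 and 166 CPM, near the WT level, unlike those of Y17D7C.3.

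**Figure D2:**
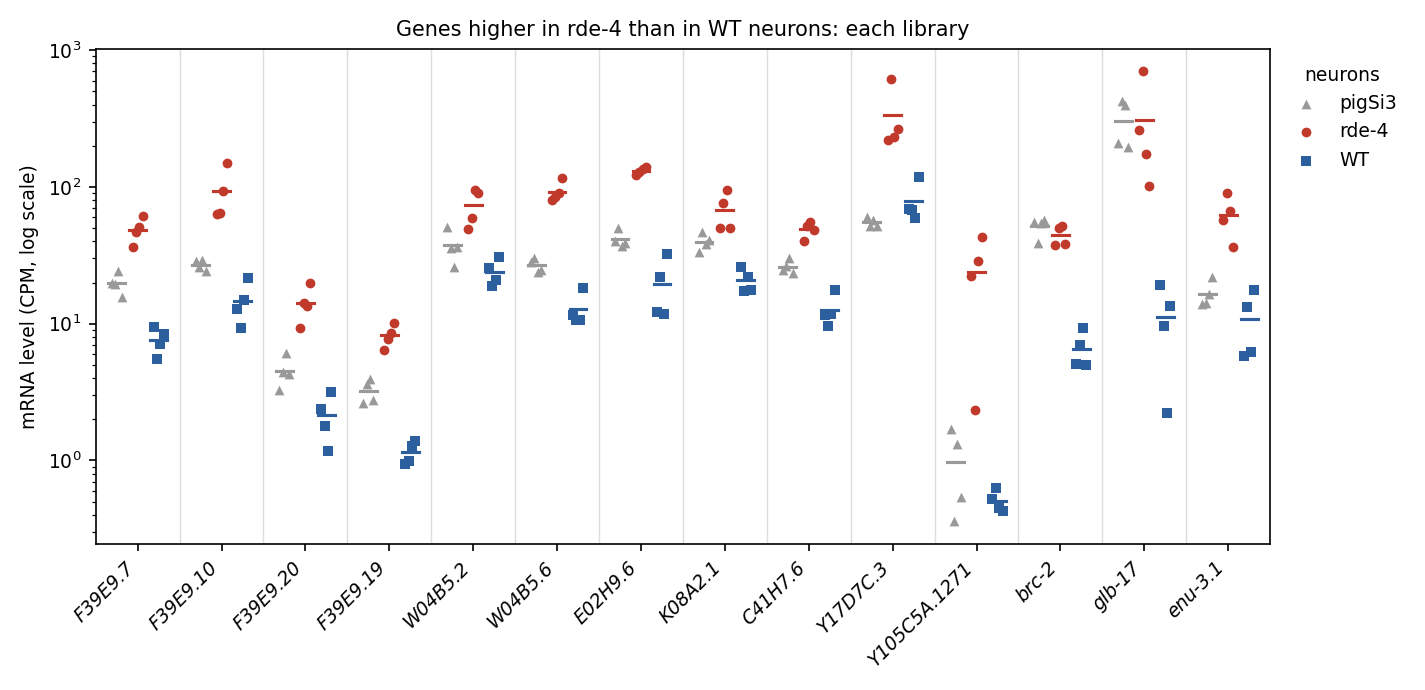
CPM (log scale) of 14 genes higher in rde-4 in each neuron mRNA library: pigSi3 (triangles), rde-4 (circles) and WT (squares), with a short line at the mean of 4 libraries. In rde-4 each gene lies above its WT libraries without overlap, and brc-2 and glb-17 differ from the rest in that pigSi3 stands at the level of rde-4.

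Over both readouts, 10 of the 32 higher genes could be tested for small RNAs, and 9 of the 10 had a small RNA log2 difference below 0. Of the 10, 6 passed with fewer small RNAs in rde-4, namely F39E9.7, F39E9.10, W04B5.2, K08A2.1, Y17D7C.3 and the chromosome IV pseudogene. Of all 5981 genes tested in both readouts, 71 passed with fewer small RNAs. Of the 23 lower genes, 3 could be tested for small RNAs (Y47G6A.29, chs-1 and rde-4), with log2 differences of -0.14, 0.08 and -0.47 and adjusted p-values of 0.853, 0.905 and 0.305. Read from the small RNA side, 71 of the 111 genes with fewer small RNAs had a tested mRNA. Of those 71, 6 were called, all higher in rde-4 (8.45%), and the median mRNA log2 difference of the 71 was 0.34. DESeq2 called 11 of them higher and 0 lower, and limma-voom 3 higher and 0 lower. At an unadjusted p under 0.05, 17 were higher and 1 lower. The 98 tested genes with more small RNAs had a median of -0.03 and held 0 calls by edgeR or limma-voom, 6 by DESeq2 (2 higher, 4 lower), and 12 genes with an unadjusted p under 0.05, 6 in each direction. Among all 5981 genes tested in both, 0.167% were called higher and the median was -0.16. Most genes that lost small RNAs therefore had no mRNA difference past the test, as the plot of both log2 differences shows.

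**Figure D3:**
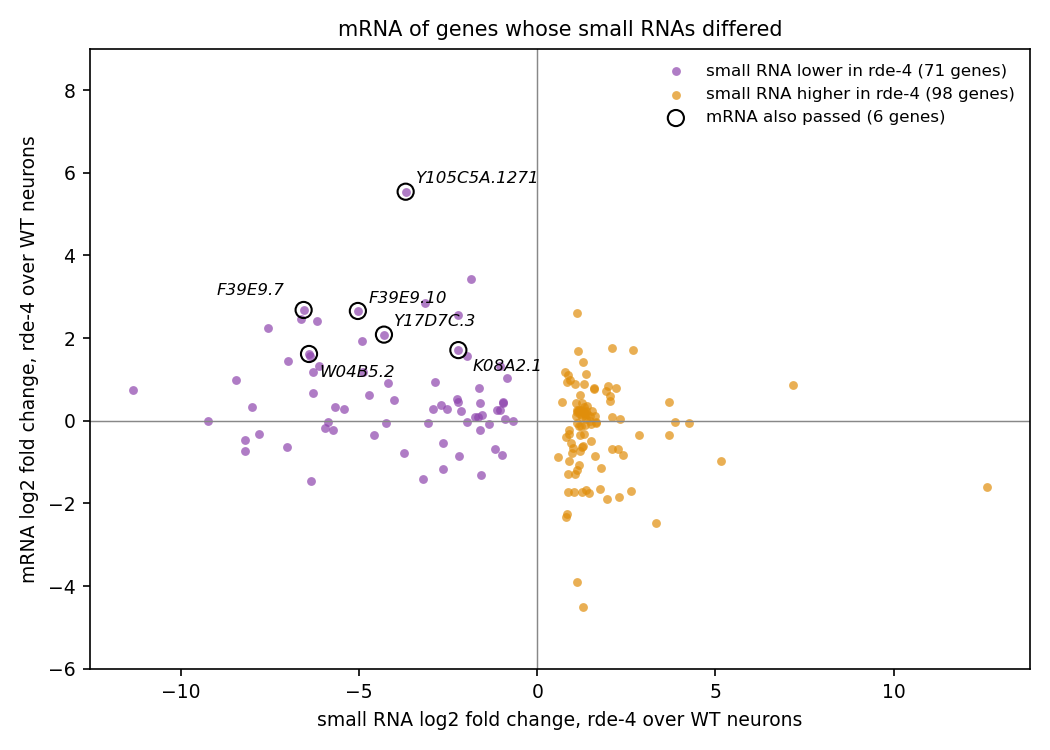
mRNA log2 fold change (vertical) against small RNA log2 fold change (horizontal), both rde-4 over WT neurons, for genes whose small RNAs passed an adjusted p of 0.05 and whose mRNA was tested. The 6 genes whose mRNA also passed (ringed) all lie at upper left, with fewer small RNAs and more mRNA in rde-4, amid 71 genes with fewer small RNAs.

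Candidate targets of the ERGO-1 pathway were examined as a list written with earlier results of these data known. Of 25 in the tables, 16 had enough mRNA reads to be tested, 2 of the 16 were called, both higher (F39E9.7 and W04B5.2), and the median log2 difference was 1.32. Of all genes 0.252% were called higher, and their median was -0.17. In 6 of the 16 the genotypes did not overlap, all higher in rde-4, as did 3.71% of all genes in this direction and 2.73% in the other. K02E2.6 had 184 to 290.1 CPM in rde-4 against 65.6 to 134 CPM in WT (log2 1.44, adjusted p = 0.0849). Y17D7B.4 had 10.7 to 29.2 CPM in rde-4 against 5.8 to 10.5 CPM in WT (log2 1.31, adjusted p = 0.13), so that neither passed. Small RNAs of 21 of the 24 candidates tested were lower in rde-4, against 1.47% of all genes. Without WT 1, WT 3 and rde-4 2, 6 of 17 candidates were called higher in mRNA, against 2.45% of all genes, among them Y17D7B.4 (adjusted p = 0.0207) and C44B11.6 (adjusted p = 0.00461). C44B11.6 stood at 284 to 511 CPM in rde-4 against 615, 79.6, 356 and 90.4 CPM in WT 1 to 4.

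Other higher genes had no tested small RNAs or no small RNA difference past the test. The tumour suppressor homologue brc-2, which acts with RAD-51 in the repair of DNA breaks, stood at 37.6, 50.5, 51.8 and 38.4 CPM in rde-4, against 5.09, 6.96, 9.27 and 4.98 CPM in WT. It was 6.74-fold higher (log2 2.75, SE 0.303, adjusted p = 0.000897). In pigSi3 neurons it stood at 39.1 to 57.2 CPM, the level of the mutant. Small RNAs of brc-2 did not pass, at 13.6 and 14.9 CPM in rde-4 and 24.6 and 29.3 CPM in WT (adjusted p = 0.323). Since brc-2 overlaps T07E3.4 in the annotation and the strand setting is not given, reads of these genes could mix.

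The globin gene glb-17 had 259, 702, 174 and 101 CPM in rde-4, against 19.2, 9.64, 2.23 and 13.6 CPM in WT, and pigSi3 held 195 to 422 CPM. It was 27.7-fold higher in rde-4 than in WT (log2 4.79, SE 0.767, adjusted p = 0.0155). ZK669.4 (dbt-1), which encodes a component of the branched-chain keto acid dehydrogenase, was likewise at 330.2 to 539.8 CPM in pigSi3, with 189.5 to 613 CPM in rde-4 and 42.4 to 121.8 CPM in WT (log2 2.49, adjusted p = 0.0353). The gene enu-3.1, a relative of the axon guidance gene enu-3, showed the other arrangement, with 36.5 to 90.7 CPM in rde-4, 5.82 to 17.7 CPM in WT and 13.8 to 21.9 CPM in pigSi3 (log2 2.55, adjusted p = 0.0158). Reads could also mix between glb-17 and the overlapping F49E2.2, and between ZK669.4 and the overlapping ZK669.3.

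Further large fold changes rested on few WT reads or on a single high library. C42D4.3 (dbd-13) had 16.8, 42.2, 18.9 and 20.3 CPM in rde-4, against 0 to 0.848 CPM in WT (log2 5.75, SE 0.748, adjusted p = 0.00542). C44B12.6 had 38.4, 179.8, 46.1 and 35.5 CPM in rde-4 and 1.95 to 12 CPM in WT (log2 3.63, SE 0.688, adjusted p = 0.0353). It overlaps the eggshell gene perm-2, so their reads could mix. In both genes rde-4 2 was the highest library, and the 3 other mutant libraries still lay above all WT libraries.

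D1022.5, F58F6.6 and ZC196.9 were 19.3-fold, 16.7-fold and 16.5-fold higher (adjusted p 0.0464, 0.0113 and 0.0236), each with WT libraries at or below 2.12 CPM. ZC196.9 overlaps droe-8, so their reads could mix. The pseudogene M01E5.1 had 0.907 to 18.3 CPM in rde-4 and 4 reads in all WT libraries together (adjusted p = 0.0172). The neighbours F46A8.8 and F46A8.13, the second an abundant ncRNA, were both higher. F46A8.13 stood at 1047 to 2779 CPM in rde-4 against 105.2 to 444 CPM in WT (log2 2.85, adjusted p = 0.0351), and F46A8.8 was 7.93-fold higher (adjusted p = 0.0204).

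A further 6 higher genes, K06H7.1, C34D1.4, C25F6.7 (itm-2), ZK858.2, sri-48 and the ncRNA Y37F4.15, differed by 3.63-fold to 6.66-fold. Of these Y37F4.15 was at 257 to 513 CPM in rde-4 against 39.2 to 99.5 CPM in WT (adjusted p = 0.0169). Y37F4.15 overlaps Y37F4.1, and sri-48 overlaps sri-53, so reads could mix there too.

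Of the chemoreceptor genes, which encode G protein-coupled receptors for odours and other cues, 4 of 253 tested were called, all higher in rde-4, where 0.252% of all genes were called higher. Other tools did not give one direction, with 16 higher and 17 lower by DESeq2 and 2 higher by limma-voom, and 36 were higher and 40 lower at an unadjusted p under 0.05. The median log2 difference over the 253 was -0.31, against -0.17 over all genes. The gene sri-48 had 13.2 to 26.9 CPM in rde-4 against 1.79 to 4.45 CPM in WT (log2 2.62, SE 0.442, adjusted p = 0.0178), and it was the only one of the 4 with more than a handful of WT reads. The receptor gene str-252 had 195 reads over the mutant libraries and 3 over the WT libraries, a ratio of 77.1 after scaling (exact 95% interval for counting error alone 26 to 377, adjusted p = 0.0169). For srd-4, which overlaps ZK863.8 in the annotation, the totals were 126 and 2 reads, a ratio of 74.7 (20.3 to 624, adjusted p = 0.049). For srx-95 the mutant libraries held 9.17, 44.8, 4.92 and 3.73 CPM, against 0.104, 0, 0.167 and 0 CPM in WT (adjusted p = 0.0439). Without WT 1, WT 3 and rde-4 2 the list held 7 genes higher and 42 lower of 380 tested, where 2.45% and 7.49% of all genes were called in these directions.

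Among the genes lower in rde-4, some varied little across the WT libraries. M176.5 stood at 5.5, 8.66, 9.85 and 8.97 CPM in rde-4, against 78.7, 49.2, 64.9 and 73.8 CPM in WT, and pigSi3 held 69.6 to 91.9 CPM, the WT level. The WT mean was 8.08 times that of the mutant (log2 -3.01, SE 0.306, adjusted p = 0.000781). The overlapping pair C32D5.8 and the ncRNA C32D5.18, whose reads could mix, was lower too. C32D5.8 had 16.4 to 20 CPM in rde-4, against 105.5, 54.3, 107.6 and 53.2 CPM in WT (log2 -2.13, SE 0.329, adjusted p = 0.0128), and 41.8 to 67.6 CPM in pigSi3. C32D5.18 was less even, with 2.71 to 7.06 CPM in rde-4 against 78.9, 21.8, 71 and 16.9 CPM in WT (log2 -3.55, adjusted p = 0.0128), and its log2 difference was -2.37 (adjusted p = 0.00733) without WT 1, WT 3 and rde-4 2. The chitin synthase gene chs-1, known for its role in the eggshell, had 5.25 to 8.55 CPM in rde-4 against 20.8 to 39.6 CPM in WT (log2 -2.02, adjusted p = 0.0267), and 3.06 to 8 CPM in pigSi3. Y47G6A.29 fell to 5.58 to 8.33 CPM in rde-4, against 16 to 26.7 CPM in WT (log2 -1.67, adjusted p = 0.0158).

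The pud genes, named for proteins upregulated in daf-2 mutants, made up 4 of the 23 lower genes. Of these pud-2.2 had 5.34, 2.44, 5.8 and 5.14 CPM in rde-4, against 169.6, 30.2, 112 and 18.6 CPM in WT (log2 -4.14, SE 0.673, adjusted p = 0.0158). The other three, pud-1.1, pud-1.2 and pud-2.1, had log2 differences of -4, -3.79 and -3.98 (adjusted p 0.0155, 0.0193 and 0.0184). They lie close together on chromosome V, 4 of the 6 tested genes of that stretch, and are known as copies of one another, so the assignment of reads among them is uncertain. WT 1 and WT 3 held the most pud reads, and without WT 1, WT 3 and rde-4 2 the log2 difference of pud-2.2 was -2.36 (adjusted p = 0.0105). In pigSi3 neurons pud-2.2 was at 3.2 to 9.48 CPM, the level of the mutant.

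**Figure D4:**
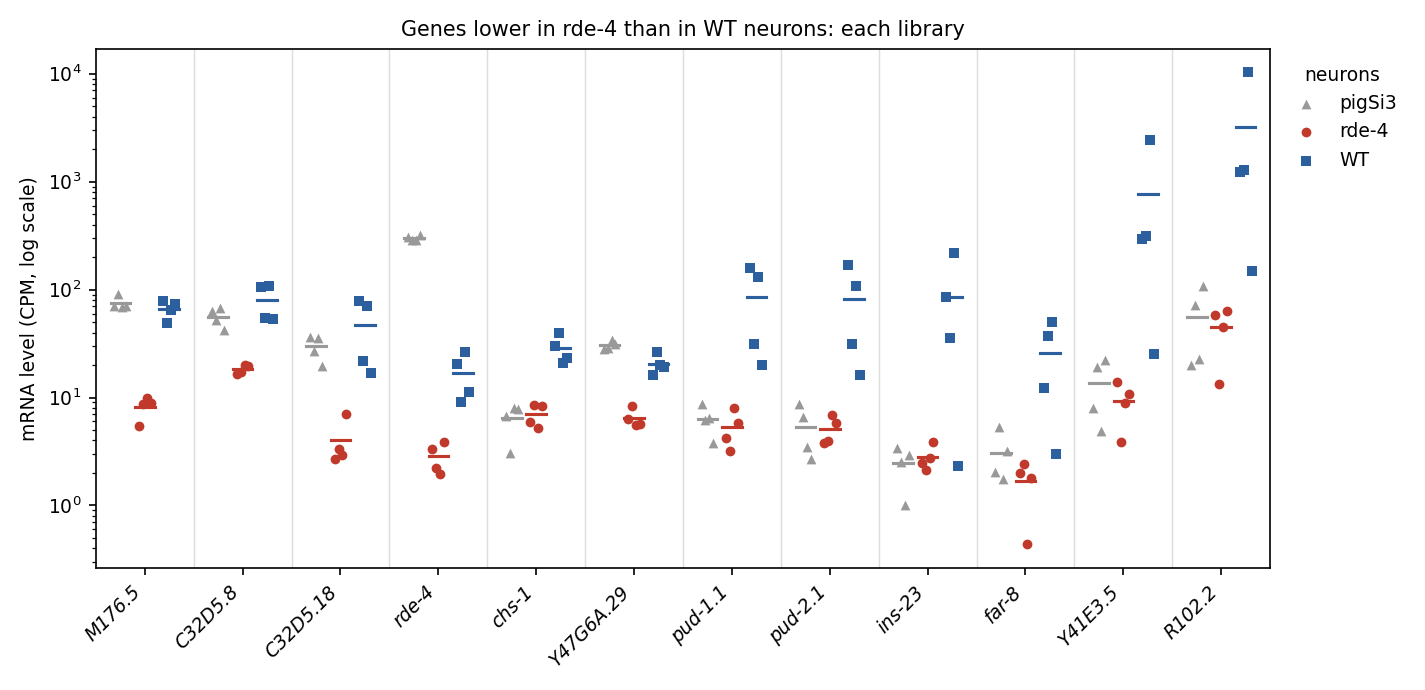
CPM (log scale) of 12 genes lower in rde-4 in each neuron mRNA library: pigSi3 (triangles), rde-4 (circles) and WT (squares), with a short line at the mean of 4 libraries. WT libraries of M176.5 lie within 49.2 to 78.7 CPM, whereas those of R102.2 run from 148 to 10304 CPM.

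The other lower genes varied widely within WT. Over the 23 lower genes the highest library exceeded the lowest by a median of 2.92-fold in rde-4 and 9.14-fold in WT, while for the 32 higher genes the median was 2.23-fold in both. WT 4 was the lowest WT library in 17 of the 23 and WT 3 the highest in 12, and 7 had a WT range over 20-fold. R102.2 had 58.4, 13.4, 44.7 and 63.4 CPM in rde-4, against 1240.0, 1275, 10304 and 148 CPM in WT (log2 -6.17, SE 1.21, adjusted p = 0.0439). Y41E3.5 had 3.89 to 13.8 CPM in rde-4, against 294, 317, 2452 and 25.1 CPM in WT (log2 -6.37, SE 1.18, adjusted p = 0.0303). In both, WT 4 was the WT library nearest to the mutant, yet it did not overlap it.

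Genes of sensory signalling and insulin-like peptides were among this variable set. The receptor guanylyl cyclase gene gcy-11 had 0.638, 0, 0 and 0.605 CPM in rde-4, against 8.31, 311, 59.8 and 7.85 CPM in WT (log2 -8.15, SE 1.57, adjusted p = 0.0399). The insulin-like gene ins-32 had 0 to 0.605 CPM in rde-4 against 29.1, 14.8, 97.3 and 1.48 CPM in WT (log2 -6.97, SE 1.31, adjusted p = 0.0351). A second insulin-like gene, ins-23, had 2.11 to 3.83 CPM in rde-4 against 86, 35.7, 218 and 2.33 CPM in WT, so WT 4 lay within the mutant range (log2 -4.93, adjusted p = 0.0358). Y41C4A.6 (nssp-36) had 1.2, 0.111, 0.109 and 0.101 CPM in rde-4, against 52.4, 113, 666 and 1.91 CPM in WT (log2 -8.95, SE 1.54, adjusted p = 0.0193).

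Summed genes of the sensory cilium, 39 in all, were highest in WT 3 and WT 2. They stood at 2667 to 3180.3 CPM in rde-4, against 1932, 5565, 8448 and 2290.1 CPM in WT 1 to 4. Their part in these results was not tested.

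K01A12.4, B0294.1, R03H10.2 and K09C6.9 had log2 differences of -5.31, -6.22, -5.93 and -5.13 (adjusted p 0.0447, 0.0204, 0.0204 and 0.0177), and each had its lowest WT library in WT 4. Y37A1B.7 had 2 reads over the mutant libraries and 340 over the WT libraries, a WT excess of 143 after scaling (exact 95% interval 39.4 to 1188, adjusted p = 0.023). The fatty acid and retinol binding protein gene far-8 had 0.438 to 2.44 CPM in rde-4 against 12.36, 36.9, 50.3 and 2.97 CPM in WT (log2 -3.93, adjusted p = 0.0464). C27A7.1 (enpp-1), which encodes a predicted ectonucleotide pyrophosphatase, was steadier, with 0.219 to 0.957 CPM in rde-4 against 4.99 to 14.2 CPM in WT (log2 -3.91, SE 0.583, adjusted p = 0.0113).

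Components of the small RNA machinery other than rde-4 did not pass with all libraries. Of 22 tested genes of the Dicer complex and exogenous RNAi, rde-4 was the 1 called, and without WT 1, WT 3 and rde-4 2 there were 7 called lower with a median log2 difference of -0.80. In that reduced fit 7.49% of all genes were called lower, and the median over all genes was -0.19. The Dicer gene dcr-1 had 11.7 to 23.4 CPM in rde-4 against 15.6, 34.7, 16.5 and 49 CPM in WT (log2 -0.70, adjusted p = 0.389), and without WT 1, WT 3 and rde-4 2 its log2 difference was -1.54 (adjusted p = 0.0158). The Argonaute gene rde-1 had a log2 difference of 0.15 (adjusted p = 0.861), negative under 4 of the alternative fits. The gene hrde-1, which encodes a nuclear Argonaute of the germline, had 5.88 to 7.42 CPM in rde-4 against 19.2, 14.2, 17.8 and 1.59 CPM in WT (log2 -1.03, adjusted p = 0.369). For saeg-2, named as a suppressor of activated EGL-4, the log2 difference was 0.37 (adjusted p = 0.604). The neuronal gene rab-3, whose promoter drives the marker, had 3518 to 10847 CPM in rde-4 and 2160 to 11192 CPM in WT (log2 0.24, adjusted p = 0.86), negative under 5 of the alternative fits. In all, 16 tested genes of the set list other than rde-4 had log2 differences between -1.03 and 2.12, with adjusted p-values of 0.274 to 0.999. That list mixed small RNA genes such as sid-1 and ergo-1 with others such as saeg-1, egl-4, sng-1 and unc-119. Its largest difference was that of F15D4.5. Of the 16, 3 (dcr-1, drh-1 and egl-4) passed without WT 1, WT 3 and rde-4 2, where 9.94% of all genes passed.

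The other gene lists show how far the outcome depends on those libraries. With all libraries, calls fell in 5 of the 46 lists examined. Besides the candidate targets these were the 4 chemoreceptor genes, rde-4 itself, gcy-11 as 1 of 53 chemosensory transduction genes, and ins-23 and ins-32 as 2 of 94 neuropeptide genes. Cytosolic ribosomal protein genes had a median log2 difference of -0.89 with 0 of 80 called by edgeR, DESeq2 or limma-voom (12 lower at an unadjusted p under 0.05). Without WT 1, WT 3 and rde-4 2 their median was 1.11 with 31 called higher. Neuropeptide genes had a median of -1.08, and without the 3 libraries 0.84 with 26 called higher and 7 lower. Histone genes had a median of -0.93 with 0 of 41 called by any of the 3 tools (5 lower and 2 higher unadjusted), and 0.80 with 7 called higher without the 3 libraries. In the other direction, synaptic vesicle cycle genes had 0.10, and without the 3 libraries -0.81 with 18 of 39 called lower. Voltage-gated and potassium channel genes had 0.11, and without them -0.86 with 16 of 70 called lower. Over all genes, the reduced fit called 1331 of 13392 (9.94%), 328 higher (2.45%) and 1003 lower (7.49%), and the pan-neuronal markers had a median of -0.36 there, against 0.25 with all libraries.

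Genes called stood in neighbouring groups in several places. Counted after the values were seen, 17 of the 55 lay in 6 groups. In these, each called gene stood at most 5 places from the next in the WBcel235 order of tested genes. Within each group all calls went in the same direction, which was not part of the rule. The groups include overlapping annotations (F39E9.7 with F39E9.19 and F39E9.20, C32D5.8 with C32D5.18) and the pud copies, among which reads may be shared. How many genes would group in this way by chance was not computed. By chromosome, 15 of 2002 tested genes on II (0.749%) and 10 of 1956 on III (0.511%) were called, against 0.433% of all genes, and the other chromosomes had 0.255% to 0.448%. The rde-4 gene lies on III, and of its 100 nearest tested neighbours 2 were called (enu-3.1 higher, ins-23 lower), while of the nearest 500 there were 3, with Y41C4A.6 added.

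The number of genes called moved with each library. Without rde-4 1, 2, 3 or 4 there were 14, 27, 18 and 30 genes called, and without WT 1, 2, 3 or 4 there were 88, 27, 26 and 825. The 8 rde-4 and WT libraries fitted without pigSi3 gave 4 genes, F39E9.7, W04B5.6, brc-2 and M176.5, and those 4 alone passed in each of the 20 alternative fits. C41H7.6, E02H9.6 and F39E9.10 passed in 19. Of the 55 genes, 53 passed without WT 1, WT 3 and rde-4 2, the exceptions being srd-4 (adjusted p = 0.0564) and C25F6.7 (adjusted p = 0.0699).

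The pigSi3 libraries fell into place differently from gene to gene. Of the 32 higher genes, their range lay between the rde-4 and WT ranges for 10, overlapped WT alone for 8, overlapped rde-4 alone for 11 and overlapped both for 3. The 10 in between were the 4 genes of the F39E9 locus, W04B5.6, E02H9.6, K08A2.1, C41H7.6, C42D4.3 and F46A8.13. Of the 23 lower genes, 14 overlapped rde-4 alone and 4 (M176.5, C32D5.8, C32D5.18 and C27A7.1) overlapped WT alone. A further 3 overlapped both, and rde-4 and Y47G6A.29 lay above WT.

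**Figure D5:**
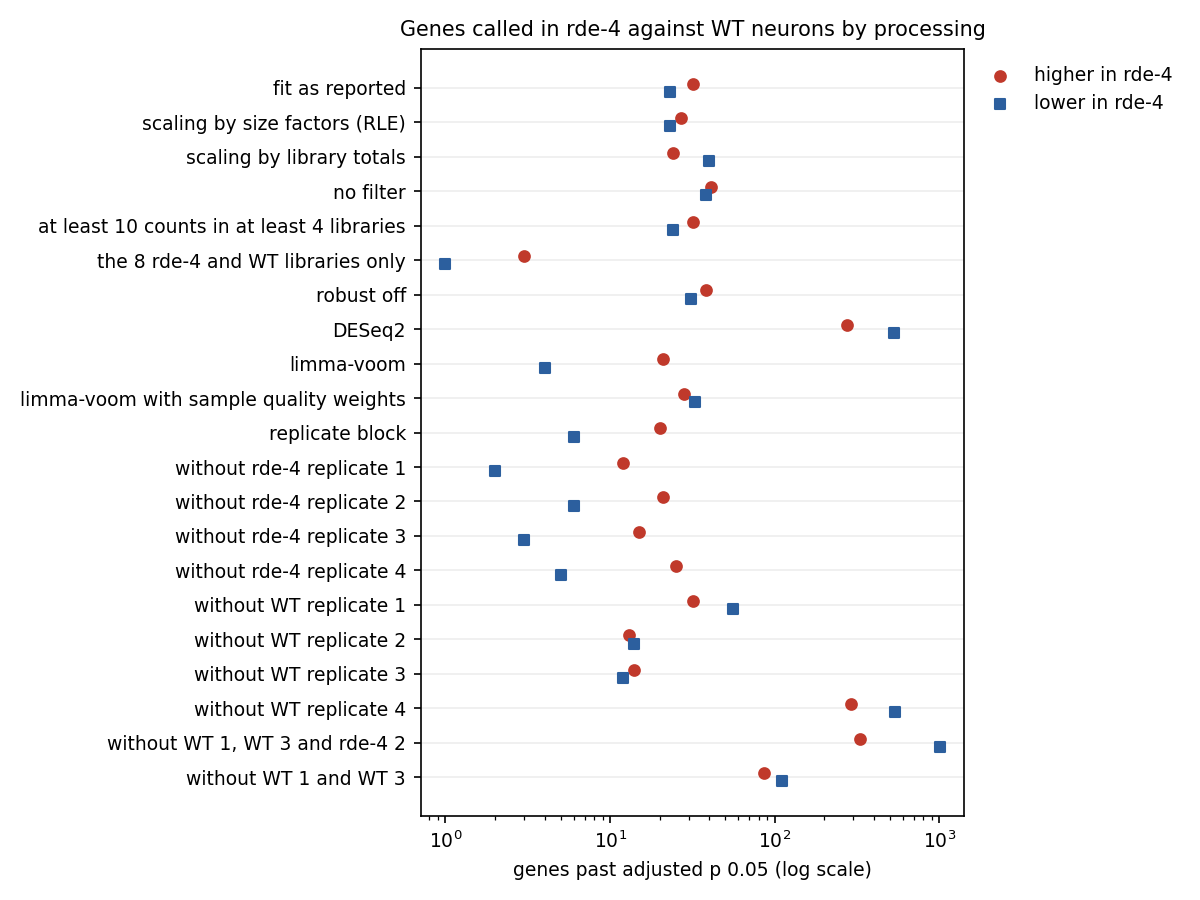
Number of genes past an adjusted p of 0.05 (log scale), higher in rde-4 (circles) and lower in rde-4 (squares), in the fit as reported and in 20 alternatives. The reported fit holds 32 higher and 23 lower genes, and the counts run from 3 and 1 in the 8-library fit to 328 and 1003 without WT 1, WT 3 and rde-4 2.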

How the data were processed

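The deposited values are read counts per gene, 1 table per library. Per the labels' protocols, RNA was extracted with TRIZOL and mRNA libraries were made with Nextera XT. The submitters' processing notes name cutadapt, FastQC, HTSeq and DESeq2 without versions, and the build ce10. No source used here gives the aligner, the annotation or the strand setting. HTSeq's lines for reads outside genes were dropped, and of these the class in no gene held 47.5 to 50.9% per library. The class of reads that HTSeq called ambiguous between genes was dropped too, at 0.0727 to 0.169% per library. Depth ran from 8433146 to 15765852 gene counts in rde-4 and WT, and 1 read bounds the precision of a low level.

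The 12 libraries were fitted in edgeR 4.0.16 (R 4.3.3): TMM scaling, filterByExpr, robust quasi-likelihood F test, Benjamini-Hochberg adjustment over all genes tested. Standard errors are the log2 difference divided by the square root of F. The 6 neuron small RNA libraries (735328 to 2530023 gene counts) were fitted the same way. The procedure was also run on simulated counts without differences in tissue content between libraries. That run therefore does not bear on how the calls moved with the libraries. Alternatives were other scalings and filters, DESeq2 1.42.0, limma 3.58.1 with voom (also with sample quality weights), the replicate number as a term, and libraries left out; none was added later.

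Genes were named by a rule: in each direction the 15 genes of largest fold change past 0.05, not overlapping, with at least 5 CPM in the higher group, plus a set list and up to 4 per gene list with the smallest adjusted p. Other called genes, M176.5 and E02H9.6 among them, were chosen after their values were seen. The members and lists were chosen with earlier results of these data known. Gene IDs matched WBcel235 names for 29715 of 30199 genes. Gene order and overlaps were taken from WBcel235 positions, while the build named by the submitters was ce10. Both may therefore differ from the annotation used for counting.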

Additional observations from a re-analysis of the deposited data

Results flagged for a closer look

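In 11 of 62 groups of 4 libraries examined over 31 genes, the highest or lowest library lay far from the others. A chance rate of about 1 in 20 groups holds for normally distributed levels. That was not checked for these CPM values of genes picked mostly for large fold changes, so no excess over chance is read from the count. WT 3 was the distant library for R102.2 (10304 CPM), Y41E3.5 (2452 CPM), Y41C4A.6 (666 CPM), K01A12.4 (436 CPM) and Y37A1B.7 (14.1 CPM), each time as the highest of the 4 WT libraries. WT 4 was the highest for W04B5.6, at 18.2 CPM against 10.6 to 11.64 CPM in the other WT libraries. The library rde-4 2 was the highest mutant library for srx-95 (44.8 CPM), C42D4.3 (42.2 CPM) and C44B12.6 (179.8 CPM), and the lowest for K09C6.9 (0.111 CPM). In Y41C4A.6, rde-4 1 was the distant library as well, at 1.2 CPM against 0.101 to 0.111 CPM in the other mutant libraries.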

How the results depend on the processing

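All 55 genes kept their direction in the 20 alternatives, except that M01E5.1 could not be tested in the fit of 8 libraries, but the number called did not hold. It was 4 in the fit of 8 libraries, 25 with limma-voom, 807 with DESeq2, 1331 without WT 1, WT 3 and rde-4 2, 196 without WT 1 and WT 3, and 14 to 825 with 1 library left out. The cause was not tested. DESeq2 called each of the 55, and limma-voom 25 of them. Small RNA calls were 252, and 142 to 432 with 1 library left out. Same-numbered libraries deviated together with correlations of -0.42 to 0.20, so the numbers are not taken as pairs; with the replicate block 26 mRNA genes and 309 small RNA genes were called. The sign of rde-1 turned to -0.29 with library totals, -0.15 without rde-4 2, -0.66 without the 3 libraries and -0.15 without WT 1 and WT 3. That of rab-3 turned to -0.21, -0.049, -0.81 and -0.32 in these fits and to -0.026 without WT 3. With 1 library left out rde-1 ranged from -0.15 to 0.42 and rab-3 from -0.049 to 0.84. Scaling by library totals called 24 higher and 40 lower. Genes with few WT reads are limited by depth.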
